A study of Homo sapiens with 6 samples.

Results

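Sebaceous lineage regulators and identity genes were read out in SZ95 sebocytes, a human sebaceous gland line made to grow without limit, after transfection with a TRPV3 plasmid or a mock plasmid. The group holds 10 genes, picked by symbol out of the 58735 genes of the deposited table: the transcription factors SOX9, TP63, GATA6, PRDM1, KLF4 and KLF5, the receptor-like membrane protein LRIG1, the melanocortin receptors MC1R and MC5R, and the membrane mucin MUC1. The groups were SZ95 cells transfected with a plasmid for overexpression of TRPV3, a calcium-permeable cation channel (3 libraries, called TRPV3 replicates 1 to 3), and SZ95 cells transfected with a mock plasmid (3 libraries, called mock replicates 1 to 3), all with a 24 h label. The series' design text gives the replicates as biological and names sebocyte inflammation as its question. All cells are of 1 line, no label says what share of the cells took up plasmid, and in bulk RNA fewer cells of a type and less RNA per cell cannot be told apart.

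Sebaceous glands renew themselves from progenitors at the gland's edge and the adjoining hair follicle, whose descendants fill with lipid and burst. In mouse skin LRIG1, an antagonist of EGF receptors, marks progenitors of the follicle junction that feed the gland. SOX9 is a factor of follicle and gland progenitors, and TP63 encodes p63, the factor that maintains basal epithelial cells. GATA6 is known from the sebaceous duct, PRDM1 (BLIMP1) from the gland and from terminally differentiating skin cells, and KLF5 and KLF4 from proliferating and differentiating epithelial layers. MUC1, also called epithelial membrane antigen, stains sebocytes in histology, and MC5R is a receptor of differentiated sebocytes that drives sebum production in mice.

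Values are the deposited FPKM, that is fragments per kilobase of annotated exon scaled for depth, and so levels of different genes can be set beside each other roughly. The lengths are merged exons of all annotated forms of a gene, and exons that are not used lower its FPKM. The recovered depth was 16015998 to 18365785 reads per library. TRPV3 itself was at 648 ± 103 FPKM in TRPV3 libraries and 0.404 ± 0.0400 FPKM in mock libraries (SD, n = 3 each), which fits the labels. Of 9 sebocyte markers 7 averaged at least 1 FPKM, and MC5R was among those that did not. All 7 epithelial markers passed 1 FPKM. Of 25 markers of melanocytes, fibroblasts, endothelial and immune cells 4 did: MITF, COL1A1, CDH5 and CD14. A pair of libraries stood apart. TRPV3 replicate 1 differed from the other libraries of its group with an SD of 0.387 on the log2 scale (0.178 to 0.258 in the other 5 libraries), and its difference ran against gene length (Spearman's rho of -0.53 across the genes tested, which are not independent replicates). Mock replicate 3 had reads in 34467 genes, against 22311 to 23072 genes in the other 5 libraries, and 9477 genes had reads in that library alone.

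The line expressed 5 of the 10 genes clearly and the other 5 at trace levels. In mock cells the order was KLF5 (56.4 ± 4.14 FPKM), MUC1 (20.7 ± 1.24 FPKM), SOX9 (13.3 ± 0.884 FPKM), KLF4 (6.97 ± 0.185 FPKM) and GATA6 (4.004 ± 0.301 FPKM), each SD over n = 3. The ranges of neighbours in that order did not overlap, and the order was the same in TRPV3 cells. Below 1 FPKM came PRDM1, then TP63 and MC1R, whose ranges overlapped in both groups, then LRIG1 and MC5R, whose ranges overlapped in mock cells.

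**Figure D1:**
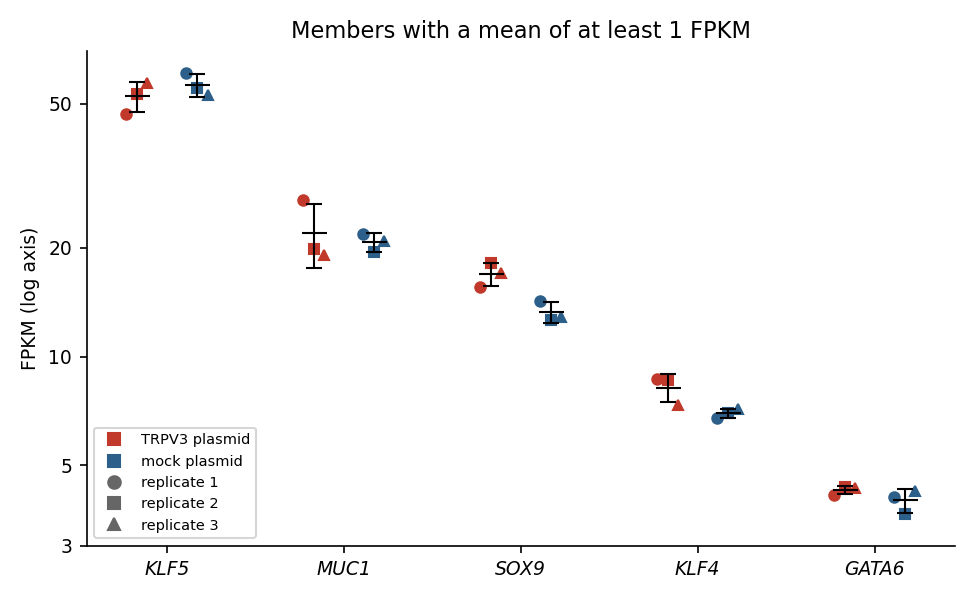
FPKM on a log axis of the 5 members with a mean of at least 1 FPKM, in TRPV3 libraries (red, left) and mock libraries (blue, right). Symbols are single libraries by replicate number, bars the mean and SD of 3 libraries; SOX9 and KLF4 show all red points above all blue points, and MUC1 has 1 high red point, at 27.2 FPKM in TRPV3 replicate 1.

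None of the members passed the test across all genes. Of 12177 genes tested (mean of at least 1 FPKM; limma on log2(FPKM + 1), Benjamini-Hochberg adjustment, called at an adjusted p under 0.05) 5 were called, all higher, which is 0.0411% of those tested. Of the 5 members that passed the filter 0 were called by limma, and 0 by limma-voom on the recovered reads of all libraries. SOX9 and KLF4, 2 of the 5, had an unadjusted limma p under 0.05, as had 4.48% of all genes tested. The same 2 had every TRPV3 library above every mock library, as had 9.49% of the genes tested, and 0 had every TRPV3 library below every mock library, as had 5.39%. The median log2 fold change was 0.08 over the 5 members and 0.01 over all genes tested.

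**Figure D2:**
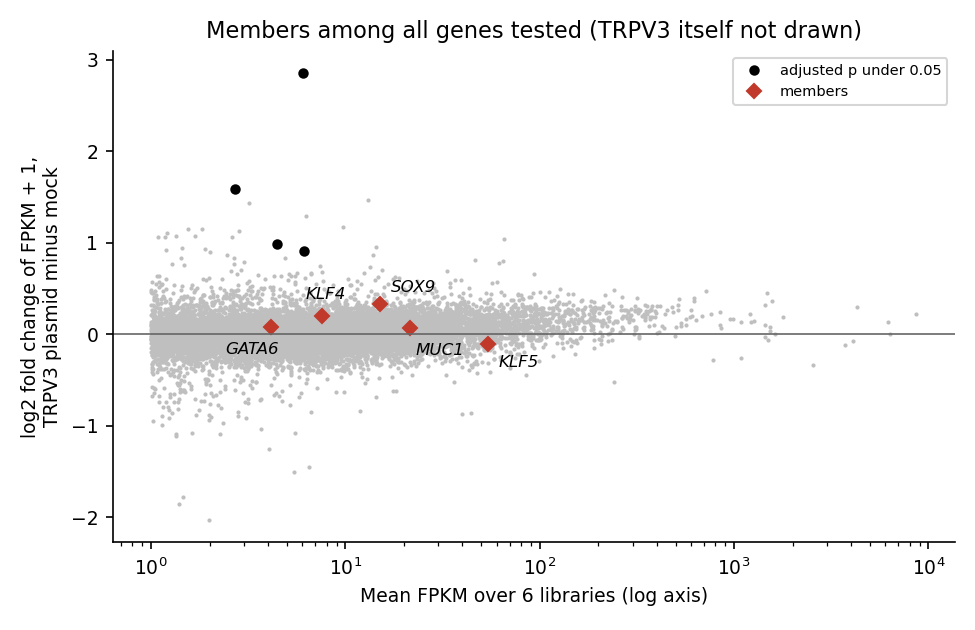
Log2 fold change of FPKM + 1 (TRPV3 plasmid minus mock) against mean FPKM on a log axis for the genes tested by limma, TRPV3 itself not drawn. Red diamonds are the 5 members, black points the other called genes; the members lie between -0.11 (KLF5) and 0.33 (SOX9), inside the cloud of grey genes.

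SOX9, a progenitor and lineage factor (ENSG00000125398, chromosome 17, 72121020 to 72126420, plus strand, hg38), had the largest difference of the 5 tested members. It was at 15.6, 18.1 and 17.1 FPKM in TRPV3 replicates 1 to 3, against 14.3, 12.6 and 12.9 FPKM in mock replicates 1 to 3. The groups did not overlap, all TRPV3 values being the higher, and the closest pair was TRPV3 replicate 1 and mock replicate 1. The log2 fold change of SOX9 was 0.33 (SE 0.09, 95% interval 0.12 to 0.54, limma adjusted p = 0.755). It did not pass without TRPV3 replicate 1 by limma either (log2 fold change 0.38, limma adjusted p = 0.159). It did pass by limma-voom without that library, a fit added once the data were known (log2 fold change 0.40, SE 0.07, limma-voom adjusted p = 0.0157), where 0.591% of genes were called. An exact two-sided permutation test of its FPKM gave p = 0.1, the smallest that 3 against 3 libraries can give.

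Of 14 other SOX genes 6 averaged at least 1 FPKM and 0 passed (limma). SOX15, known from epithelial cells, was the highest of the family, at 31.9 ± 4.24 FPKM in TRPV3 cells and 30.7 ± 1.33 FPKM in mock cells, and SOX9 came next. SOX9 made up 21.3%, 24.7% and 25.4% of the FPKM summed over these 15 genes in TRPV3 replicates 1 to 3, against 20.8%, 19.9% and 19.3% in mock replicates 1 to 3. The groups did not overlap (exact two-sided permutation p = 0.1, n = 3 each). This share holds the FPKM of SOX9, which did not overlap either, so it is no separate result. SOX17, a factor best known from endoderm and endothelium, was at 1.86 ± 0.179 FPKM in TRPV3 cells and 1.15 ± 0.196 FPKM in mock cells (log2 fold change 0.41, SE 0.11, limma adjusted p = 0.755).

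LRIG1 (ENSG00000144749, chromosome 3, 66378797 to 66501263, minus strand) was barely detected. It had 6, 5 and 4 reads in TRPV3 replicates 1 to 3, against 3, 9 and 15 reads in mock replicates 1 to 3, or 0.0402 ± 0.00793 FPKM and 0.0734 ± 0.0466 FPKM. The groups overlapped, and the highest count was in mock replicate 3, the library with reads in the most genes. In that library 19 of 21 low markers of other cell types had reads, against 9 to 12 in each of the other 5 libraries; the part of that library in the LRIG1 value was not tested. LRIG1 shares 907 exonic bases with SLC25A26 on the opposite strand, which had 251 to 388 reads per library, and no source used here gives the strand setting of the counting. Without mock replicate 3 the mock libraries held 3 and 9 reads, on both sides of the TRPV3 range. Its relatives LRIG3 and LRIG2 were higher, at 1.64 ± 0.313 and 1.27 ± 0.124 FPKM in TRPV3 cells and 1.85 ± 0.113 and 1.42 ± 0.120 FPKM in mock cells.

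Of the 4 EGF receptor family genes listed, the 3 tested were far more abundant than LRIG1. ERBB4 was not: it was at 0 FPKM in each TRPV3 library and at 0.0229 ± 0.0213 FPKM in mock cells. EGFR was at 24.1, 45.8 and 49.0 FPKM in TRPV3 replicates 1 to 3, against 50.2, 44.1 and 40.9 FPKM in mock replicates 1 to 3. Its low value was in TRPV3 replicate 1, and the groups otherwise overlapped (log2 fold change -0.24, SE 0.26, limma adjusted p = 0.764). ERBB2, the co-receptor of the family, was at 17.4 ± 0.539 FPKM in TRPV3 cells and 20.2 ± 0.513 FPKM in mock cells (log2 fold change -0.20, SE 0.07, limma adjusted p = 0.755). ERBB3 was at 5.56 ± 0.779 FPKM in TRPV3 cells and 6.68 ± 0.237 FPKM in mock cells (log2 fold change -0.23, SE 0.10, limma adjusted p = 0.755). Both had every TRPV3 library below every mock library, as had 5.39% of all genes tested. The names ERBB3 and ERBB4 were chosen after their values were seen. Of the 3 receptors tested 0 passed.

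TP63 (ENSG00000073282, chromosome 3, 189631416 to 189897279, plus strand), the basal epithelial factor, was also a trace transcript. It had 37, 46 and 49 reads in TRPV3 replicates 1 to 3, against 69, 43 and 43 reads in mock replicates 1 to 3. Its level was 0.334 ± 0.0481 FPKM in TRPV3 cells and 0.3997 ± 0.112 FPKM in mock cells, and the groups overlapped. TP63 has a long and a short N-terminal form from separate start sites, and reads counted per gene do not divide them.

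Basal epithelial genes known as p63 targets were present beside this low TP63 level. Of 19 such genes 18 averaged at least 1 FPKM and 0 passed (limma), 9 with a fold change above 0 and 9 below, or 4 and 14 under TPM scaling. Their median log2 fold change was -0.01, beside 0.01 over all genes tested; under TPM scaling it was -0.11, beside -0.068 over all genes tested, since that scaling multiplies every gene of a library by 1 factor. KRT5, the basal keratin, was at 149 ± 5.24 FPKM in TRPV3 cells and 160 ± 15.1 FPKM in mock cells, whereas its usual partner KRT14 was at 1.19 ± 0.557 and 0.859 ± 0.122 FPKM. LAMB3, a laminin chain of the epithelial basement membrane, was at 251, 241 and 253 FPKM in TRPV3 replicates 1 to 3, against 184, 179 and 189 FPKM in mock replicates 1 to 3. Every TRPV3 library was above every mock library (log2 fold change 0.43, SE 0.08, limma adjusted p = 0.374). By limma-voom without TRPV3 replicate 1, where 0.591% of all genes were called, 2 of the 18 passed: LAMB3 (log2 fold change 0.41, adjusted p = 0.000598) and LAMA3, the alpha chain of the same laminin (0.29, adjusted p = 0.0237). LAMA3 rests on leaving that library out: it was at 52.5, 84.7 and 92.3 FPKM in TRPV3 replicates 1 to 3, against 77.8, 70.8 and 66.8 FPKM in mock replicates 1 to 3. TRPV3 replicate 1 lay below every mock library, and with all libraries the log2 fold change of LAMA3 was 0.05 (SE 0.21, limma adjusted p = 0.927). The names KRT5, KRT14 and LAMA3 were chosen after their values were seen.

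**Figure D3:**
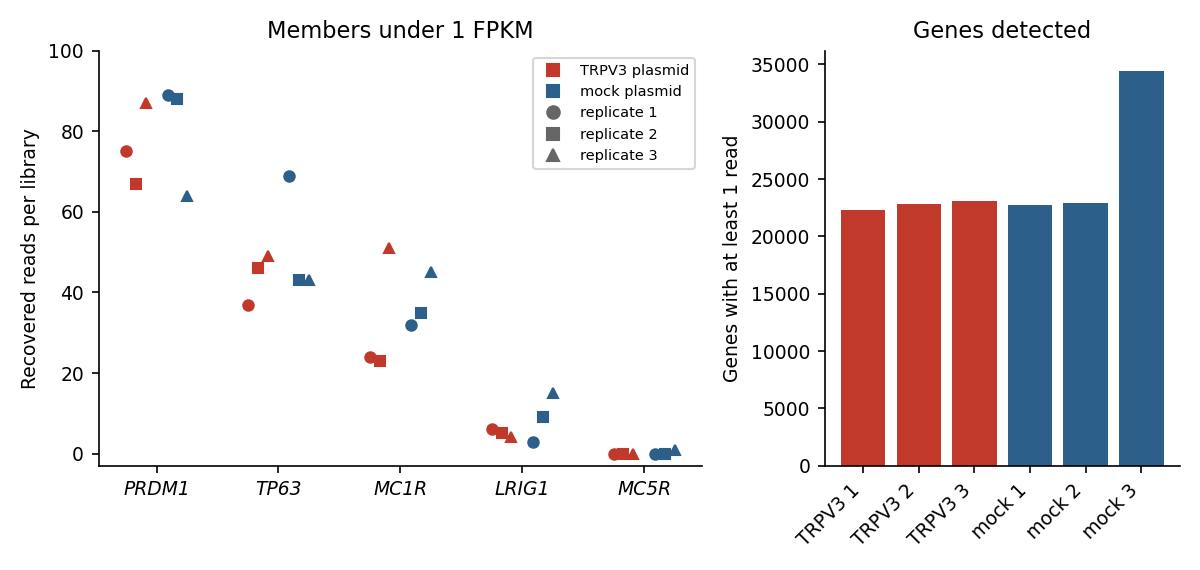
Left, recovered reads per library of the 5 members under 1 FPKM, TRPV3 libraries red and mock libraries blue, with symbols for replicate numbers. Right, bars of the number of genes with at least 1 read in each library; mock replicate 3 has 34467, and it also holds the highest LRIG1 count (15 reads) and the only MC5R read.

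KLF5 and KLF4, zinc-finger factors that bind GC-rich and CACCC sequences, were the first and the fourth most abundant members. KLF5 (ENSG00000102554, chromosome 13, 73054976 to 73077542, plus strand), a factor of proliferating epithelium, was at 47.0, 53.2 and 57.1 FPKM in TRPV3 replicates 1 to 3, against 60.9, 55.5 and 52.8 FPKM in mock replicates 1 to 3. The groups overlapped, and the lowest value was in TRPV3 replicate 1. Its log2 fold change was -0.11 (SE 0.10, 95% interval -0.34 to 0.13, limma adjusted p = 0.755), and -0.03 without TRPV3 replicate 1.

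KLF4 (ENSG00000136826, chromosome 9, 107484852 to 107490482, minus strand), a factor of differentiating epithelium, was at 8.67, 8.60 and 7.36 FPKM in TRPV3 replicates 1 to 3, against 6.78, 6.97 and 7.15 FPKM in mock replicates 1 to 3. TRPV3 replicates 1 and 2 were well above the mock range and replicate 3 just above it. The log2 fold change of KLF4 was 0.21 (SE 0.08, 95% interval 0.01 to 0.40, limma adjusted p = 0.755), and 0.17 without TRPV3 replicate 1. The exact two-sided permutation test gave p = 0.1 (n = 3 each).

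Among 14 Kruppel-like factors considered, KLF5 ranked first and KLF4 seventh by mean FPKM. KLF5 made up 38.4%, 37.9% and 39.5% of the FPKM summed over them in TRPV3 replicates 1 to 3, against 42.2%, 40.9% and 40.3% in mock replicates 1 to 3, with no overlap (exact two-sided permutation p = 0.1, n = 3 each). The share also depends on the other genes of the sum, and the FPKM of KLF5 itself overlapped (exact two-sided permutation p = 0.5). KLF4 made up 6.10% ± 0.999 in TRPV3 cells and 5.10% ± 0.382 in mock cells, which overlapped. Of the 12 others 8 were tested and 0 passed (limma). KLF10, a factor induced by TGF-beta and known as an early response gene, was at 26.4 ± 2.17 FPKM in TRPV3 cells and 22.0 ± 0.0617 FPKM in mock cells with every TRPV3 library above every mock library (log2 fold change 0.25, SE 0.08, limma adjusted p = 0.755). It passed by limma-voom without TRPV3 replicate 1 (0.32, adjusted p = 0.0157). KLF16 was at 12.7 ± 1.46 FPKM in TRPV3 cells and 12.4 ± 0.357 FPKM in mock cells.

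Promoter sequences were looked up in the RefSeq table (build GRCh38.p14), which matched 9 of the 10 members, SOX9 being the exception. The 250 bases before the first listed start were searched on both strands for the GC box (GGGCGG), the CACCC box (CACCC), the AP-1 motif (TGANTCA), the cyclic AMP response element (TGACGTCA), the CCAAT box (CCAAT) and the TATA box (TATAAA). KLF4 and MUC1 are shown because they held the most GC boxes of the members, 4 each, and because KLF4 is the matched member whose groups did not overlap. LRIG1 held 3, MC1R 2 and MC5R 1, and the other 4 matched members held none. The KLF4 stretch is chr9:107489770-107490019 and the MUC1 stretch chr1:155192916-155193165, both written 5′ to 3′ on the minus strand; the KLF4 stretch lies inside the annotated gene, upstream of its main start. Capitals mark GC boxes on either strand in KLF4, and GC boxes and 1 TATA box in MUC1, where 3 GC boxes overlap each other.
KLF4: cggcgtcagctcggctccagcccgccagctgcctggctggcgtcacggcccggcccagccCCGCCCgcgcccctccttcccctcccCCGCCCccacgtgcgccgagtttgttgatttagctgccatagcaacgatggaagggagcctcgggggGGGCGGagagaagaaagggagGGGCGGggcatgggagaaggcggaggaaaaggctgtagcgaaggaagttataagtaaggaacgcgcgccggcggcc
MUC1: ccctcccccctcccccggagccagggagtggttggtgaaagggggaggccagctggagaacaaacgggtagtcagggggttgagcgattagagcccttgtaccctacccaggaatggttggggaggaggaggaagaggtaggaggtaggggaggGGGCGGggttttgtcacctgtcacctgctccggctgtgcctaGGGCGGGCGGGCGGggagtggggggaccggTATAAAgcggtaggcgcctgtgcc
Over 35116 promoters of the same length 42.6% held a GC box, 54.7% a CACCC box, 32% a CCAAT box, 10.7% a TATA box, 6.57% an AP-1 motif and 1.65% a cyclic AMP response element. None of the 9 matched members held the AP-1 motif or the cyclic AMP response element in this window, and no GC box overlapped a CACCC box. These matches describe letters and are no measure of binding.

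GATA6 (ENSG00000141448, chromosome 18, 22169443 to 22202528, plus strand), the factor of the sebaceous duct, was nearly equal in the groups. It was at 4.15, 4.35 and 4.33 FPKM in TRPV3 replicates 1 to 3, against 4.08, 3.67 and 4.26 FPKM in mock replicates 1 to 3, which overlapped. The log2 fold change was 0.08 (SE 0.08, 95% interval -0.11 to 0.27, limma adjusted p = 0.761); on the linear scale of FPKM + 1 that interval runs from 0.927-fold to 1.20-fold. GATA6 shares 240 exonic bases with GATA6-AS1 on the opposite strand, which had 8 to 18 reads per library. Its relatives GATA3, a factor of skin and follicle epithelium, and GATA2 were more abundant, at 15.9 ± 0.832 and 14.6 ± 0.579 FPKM in TRPV3 cells and 15.1 ± 0.913 and 16.0 ± 1.27 FPKM in mock cells. GATA6 made up 12.3% ± 0.377 of the 6 GATA genes' summed FPKM in TRPV3 cells and 11.4% ± 0.888 in mock cells.

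Genes of the sebaceous duct and upper follicle were described beside GATA6. Of 11 such genes 6 were tested and 0 passed (limma). Those tested were KRT6A, KRT6B, KRT16, KRT17, SPRR1B and CST6. The others fell under the filter: KRT79, KRT75, DEFB1 and SPRR1A averaged 0.0504, 0.0159, 0.0998 and 0.846 FPKM over the 6 libraries, and PLET1 had no read. Apart from KRT6A and KRT17 these names were chosen after their values were seen. The fold changes of the list describe the 6 tested genes only. All 6 had a fold change above 0 with the deposited scaling and 5 had one under TPM scaling, under quantile scaling or with the length trend removed, and 4 had every TRPV3 library above every mock library, as had 9.49% of all genes tested. Their median log2 fold change was 0.37, beside 0.01 over all genes tested, and 0.19 without TRPV3 replicate 1. KRT17, a keratin of the duct and outer root sheath, was at 219, 151 and 148 FPKM in TRPV3 replicates 1 to 3, against 124, 125 and 125 FPKM in mock replicates 1 to 3. The highest value was in TRPV3 replicate 1, and the other 2 TRPV3 libraries also lay above the mock range (log2 fold change 0.44, SE 0.16, limma adjusted p = 0.755). By limma-voom without TRPV3 replicate 1 it passed, with a log2 fold change of 0.25 (adjusted p = 0.0194). KRT6A was at 448 ± 10.7 FPKM in TRPV3 cells and 425 ± 16.1 FPKM in mock cells. KRT79, a keratin of the duct and upper follicle named after its values were seen, had at most 0.0220 FPKM in TRPV3 libraries; in mock cells it was at 0 in replicates 1 and 2 and at 0.281 FPKM in replicate 3.

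PRDM1 (ENSG00000057657, chromosome 6, 106086320 to 106109939, plus strand), a transcriptional repressor known from terminally differentiating skin cells, lay just under the filter. It had 75, 67 and 87 reads in TRPV3 replicates 1 to 3, against 89, 88 and 64 reads in mock replicates 1 to 3. The groups overlapped, at 0.676 ± 0.0966 FPKM in TRPV3 cells and 0.730 ± 0.159 FPKM in mock cells. PRDM1 was the sixth of 9 PRDM genes by mean FPKM; PRDM4 was highest, at 10.1 ± 1.48 FPKM in TRPV3 cells and 10.2 ± 0.451 FPKM in mock cells. Of the 3 relatives tested 0 passed (limma).

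MUC1 (ENSG00000185499, chromosome 1, 155185824 to 155192916, minus strand), the membrane mucin of sebocytes and glandular epithelium, was the second most abundant member. It was at 27.2, 19.8 and 19.1 FPKM in TRPV3 replicates 1 to 3, against 21.9, 19.4 and 20.9 FPKM in mock replicates 1 to 3. TRPV3 replicate 1 alone lay above the mock range, and replicate 3 was the lowest of all 6 libraries. The log2 fold change was 0.07 (SE 0.14, 95% interval -0.26 to 0.39, limma adjusted p = 0.856), and it was -0.085 without TRPV3 replicate 1. Since that library also differed along gene length, the value with the length trend removed stands beside it, 0.05 (SE 0.13).

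Among 12 mucin genes MUC1 was the highest, with 73.2%, 62.1% and 57.7% of their summed FPKM in TRPV3 replicates 1 to 3, against 59.8%, 59.9% and 61.7% in mock replicates 1 to 3. The other mucins were unequal in TRPV3 replicate 1 as well. MUC4, a long membrane mucin, was at 3.63 FPKM in that library, against 5.20 and 6.10 FPKM in the other TRPV3 libraries and 5.52 to 6.27 FPKM in mock libraries. MUC20, a shorter one, was at 5.08 FPKM in it, against 3.92 and 3.79 FPKM in the other TRPV3 libraries and 3.79 to 4.02 FPKM in mock libraries. Of the 3 other mucins tested 0 passed (limma).

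Genes of sebocyte differentiation and lipid synthesis, listed beside MUC1, were described as a group. Of 20 genes 14 were tested and 0 passed (limma), 9 with a fold change above 0 and 5 below (5 and 9 under TPM scaling), with a median of 0.04, beside 0.01 over all genes tested. Under TPM scaling the median was -0.03, beside -0.068 over all genes tested. The small distance between the list and all genes was not tested. KRT7, a keratin of glandular epithelium, was at 552 ± 89.3 FPKM in TRPV3 cells and 513 ± 15.4 FPKM in mock cells. SCD, the stearoyl-CoA desaturase, was at 219 ± 42.6 FPKM in TRPV3 cells and 227 ± 22.4 FPKM in mock cells. AWAT2, a wax ester synthase, had no read in any library, and was named after its values were seen.

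Of the melanocortin receptors MC5R was at the limit of detection, and MC1R was a trace transcript with reads in every library. MC5R (ENSG00000176136, chromosome 18, 13824149 to 13827323, plus strand) had 0 reads in each TRPV3 library and in mock replicates 1 and 2, and 1 read in mock replicate 3. A count of 0 allows up to 3 reads, which for this gene is 0.0864 to 0.0970 FPKM by library, counting error only. A difference between the groups was not detectable at this depth.

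MC1R (ENSG00000258839, chromosome 16, 89912119 to 89920977, plus strand), the receptor for melanocortins that is best known from melanocytes and also described in sebocytes, had 24, 23 and 51 reads in TRPV3 replicates 1 to 3, against 32, 35 and 45 reads in mock replicates 1 to 3. That is 0.333 ± 0.165 FPKM in TRPV3 cells and 0.386 ± 0.0582 FPKM in mock cells, and the TRPV3 libraries lay on both sides of the mock range. MC1R shares 547 exonic bases with TCF25 on the same strand, which had 1757 to 2299 reads per library, so that some reads may not be divided between them with certainty. It also shares 1192 bases with AC092143.1 and 358 with AC092143.3 on the same strand, and 899 with AC092143.2 on the opposite strand. AC092143.1 and AC092143.2 had no read, and AC092143.3 had at most 2 per library. How reads over shared bases were counted is not known here, so the MC1R value may be too high or too low. Of 7 melanocyte markers 1, MITF, averaged at least 1 FPKM over the 6 libraries, and their summed level was 4.21 to 4.97 FPKM in TRPV3 libraries and 4.87 to 5.21 FPKM in mock libraries. The defining markers TYR and DCT, named after their values were seen, were at 0 in all 3 TRPV3 libraries and in mock replicates 1 and 2. Others of the list were not at 0: PMEL, a melanosome protein, was at 1.04 ± 0.142 FPKM in TRPV3 cells and 0.916 ± 0.158 FPKM in mock cells, and MLANA and TYRP1 each had reads in every library but TRPV3 replicate 1. These 3 names were also chosen after their values were seen, and the part of such cells in the MC1R value was not tested.

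Genes downstream of the melanocortin receptors were detected and the ligand precursor was not. POMC, the precursor of melanocortins, and MC2R, the corticotropin receptor, had no read in any library; both were named after their values were seen. Of 19 pathway genes 9 were tested and 0 passed (limma), 1 with a fold change above 0 and 8 below. Their median log2 fold change was -0.17, beside 0.01 over all genes tested. Without TRPV3 replicate 1 the median of the list was -0.05, again with 1 above 0 and 8 below. Under TPM scaling it was -0.26, with 0 above and 9 below, beside -0.068 over all genes tested. GNAS, the stimulatory G protein subunit, was the gene with a fold change above 0 (log2 fold change 0.02). It was at 94.99 ± 5.07 FPKM in TRPV3 cells and 93.6 ± 3.43 FPKM in mock cells. ADCY3, an adenylyl cyclase, was at 16.0 ± 3.45 FPKM in TRPV3 cells and 18.8 ± 1.60 FPKM in mock cells, its lowest value being 12.1 FPKM in TRPV3 replicate 1.

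Wnt, hedgehog and Notch genes, the signals that act on follicle and gland progenitors, did not pass as single genes either. Of 22 genes 13 were tested and 0 passed (limma), 3 with a fold change above 0 and 10 below. Their median log2 fold change was -0.11, beside 0.01 over all genes tested. Without TRPV3 replicate 1 the median of the list was 0.01, with 7 above 0 and 6 below. CTNNB1, which encodes beta-catenin, was at 26.2 ± 1.07 FPKM in TRPV3 cells and 25.4 ± 0.653 FPKM in mock cells. HES1, a Notch target, was at 22.9, 16.2 and 15.8 FPKM in TRPV3 replicates 1 to 3, against 14.99, 15.1 and 15.4 FPKM in mock replicates 1 to 3. Every TRPV3 library was above every mock library, by a wide margin only in replicate 1 (log2 fold change 0.24, SE 0.14, limma adjusted p = 0.755). Of the 13 tested genes 1, HES1, lay so, as did 9.49% of all genes tested. In 2, GLI2 and JAG2, every TRPV3 library was below every mock library, as in 5.39% of all genes tested. Their log2 fold changes were -0.35 (SE 0.15) and -0.14 (SE 0.07), each with a limma adjusted p of 0.755. Both were named after their values were seen.

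**Figure D4:**
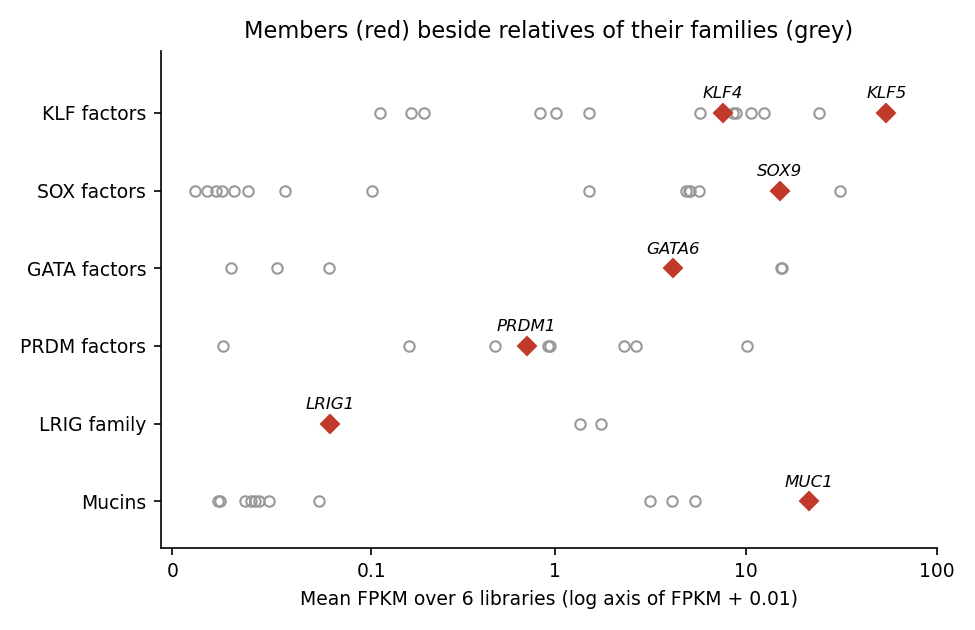
Mean FPKM over 6 libraries, on a log axis of FPKM + 0.01, of 7 members (red diamonds) and the other genes considered of their families (grey circles), 1 family per row. KLF5 and MUC1 are the highest of their rows, SOX9 the second, and LRIG1 the lowest.

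Among the 5 tested members the largest upper bound of a fitted interval was 1.45-fold, for SOX9, and the smallest lower bound 0.788-fold, for KLF5, both on the scale of FPKM + 1. The members under 1 FPKM were left out of the limma test; without the filter on low values their adjusted p ran from 0.733 to 0.878. A p that misses the threshold does not show that the groups are equal.

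**Figure D5:**
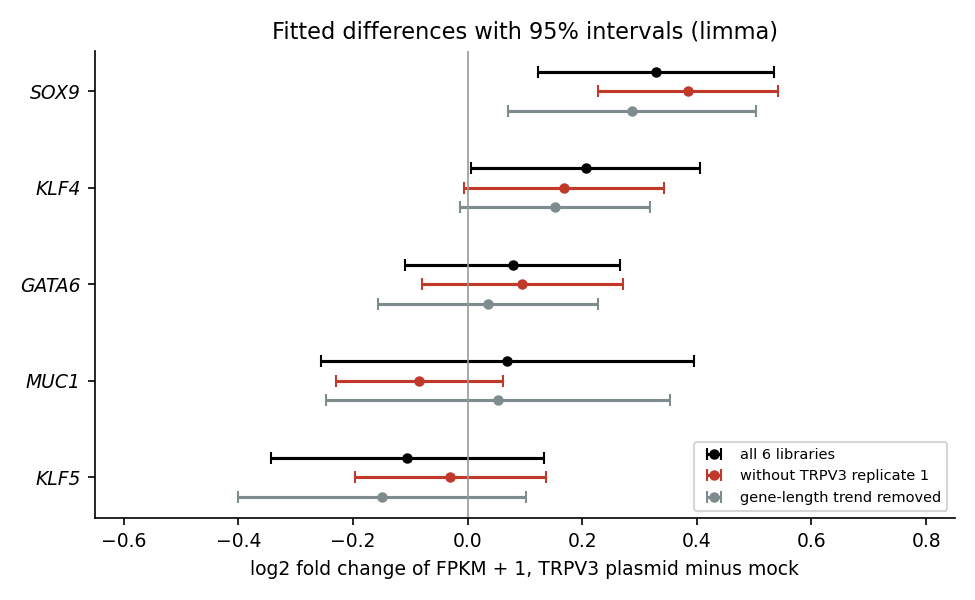
Points and bars give the log2 fold change of FPKM + 1 (x axis, TRPV3 plasmid minus mock) and its 95% limma interval for the 5 tested members, with all 6 libraries (black), without TRPV3 replicate 1 (red) and with the gene-length trend removed (grey). SOX9 lies above 0 in each fit (0.33, 0.38 and 0.29), and MUC1 changes side without TRPV3 replicate 1 (0.07, -0.085 and 0.05).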

How the data were processed

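Libraries were made from total RNA with a NEBNext Ultra kit, per the labels' protocols; HISAT2 2.0.5 and build hg38 are named in the submitters' processing notes. The authors deposited FPKM per gene and library. No source used here names the counting tool. The deposited gene lengths equal the merged exon lengths of GENCODE 29 for all 58735 genes. FPKM times length gave whole multiples of 1 step for 100% of values (tolerance 0.02 reads), which recovered 16015998 to 18365785 reads per library; 3 reads at 1 kb are 0.165 to 0.185 FPKM. The deposited scaling equals median-of-ratios factors.

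Groups and replicate numbers came from the labels. Genes averaging at least 1 FPKM over the 6 libraries (12177) were tested as log2(FPKM + 1) with limma 3.58.1 in R 4.3.3 (linear model of group, empirical Bayes with trend, Benjamini-Hochberg adjustment over all of them, threshold 0.05). Adjusted p-values are from limma, or limma-voom where named. Exact two-sided permutation tests used SciPy 1.17.1. The fit was tested on simulated data. Replicates differed beyond sampling noise (chi-square per degree of freedom 2.52 to 54.2).

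Members and the 18 gene lists were chosen with earlier results of these data known. Named were the members, TRPV3, and the 2 most abundant genes of each list, called genes (up to 4) and family relatives of at least 1 FPKM; for others the text says that their values were known first, and some genes of the lists are not reported here. Alternatives were other pseudocounts, filters, scalings and variance models, a replicate block, length-trend removal and each library left out; limma-voom without TRPV3 replicate 1, and the fit without that library and mock replicate 3, were chosen after seeing the data.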

Additional observations from a re-analysis of the deposited data

How the results depend on the processing

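Of the 5 tested members, SOX9, KLF4, KLF5 and GATA6 kept their direction in every alternative run (GATA6 could not be tested with a filter of 5 FPKM). SOX9 ranged from 0.24 to 0.40 on the log2 scale, KLF4 from 0.12 to 0.27, KLF5 from -0.20 to -0.03 and GATA6 from 0.000316 to 0.13. MUC1, at 0.07 with all libraries, was at -0.025 under TPM scaling, which moved the median of all genes from 0.012 to -0.068. It also changed sign without TRPV3 replicate 1 (-0.085), without that library and mock replicate 3 (-0.079) and by limma-voom without TRPV3 replicate 1 (-0.10); the cause of these was not tested. With 1 library at a time left out it ran from -0.085 to 0.16. The number of members called was 0 in every alternative but limma-voom without TRPV3 replicate 1, where it was 1 (SOX9). The number of all genes called, 5 with all libraries, was 2 without a filter, 3 with a filter of 5 FPKM, 3 with the replicate number as a block, 10 without both libraries that stood apart and 72 by limma-voom without TRPV3 replicate 1. By limma it ran from 2 to 8 when 1 library at a time was left out, with 8 when that was TRPV3 replicate 1, 2 when it was TRPV3 replicate 2 or mock replicate 1, and 3 for each of the others. Libraries of the same number did not deviate together (correlations of -0.272, -0.0387 and -0.168). These are deviations from means of 3 libraries, and TRPV3 replicate 1 stood apart. They therefore cannot show whether libraries of the same number were handled together. With the block SOX9 had a limma adjusted p of 0.874. Over all alternatives the adjusted p of SOX9 ran from 0.0157 to 0.966. For MC5R and LRIG1, at 0 to 15 reads per library, depth is the limit.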
